A study of Mus musculus with 144 samples.

Results

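Single microglia of the mouse retina fell into cells with high and cells with low messenger RNA of immediate early genes, and these 2 classes are compared here across all other genes. The cells were chosen by the measured levels of 8 rule genes, Fos, Jun, Junb, Egr1, Btg2, Zfp36, Klf6 and Ier2. A cell was immediate-early-high (high) when 6 or more of them had an FPKM of 10 or more, and immediate-early-low (low) when 2 or fewer did. FPKM is a read density, corrected for the length of the gene and the reads of the cell. The series holds 48 cells in each of 3 groups; 4 were left out and 140 had at least 1000 detected genes (FPKM of at least 1) and were kept. Of these, 59 were high, 64 were low and 17, with 3 to 5 rule genes, were intermediate and entered no comparison.

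Flow cytometry was used to sort the cells from retinas of Iba1-EGFP mice, in which the Iba1 promoter drives a green fluorescent protein in microglia and related myeloid cells. The mice had been given ripasudil, which inhibits ROCK1 and ROCK2, kinases that act on the cytoskeleton, at 1 mg/kg (age 14 weeks) or 10 mg/kg (age 12 weeks), or PBS (age 10 to 14 weeks). A plate carried 16 cells of each group, over 3 plates. The series concerns the receptor Gpr84 and the cytokines Tnf and Il1a, and its labels state neither the animal of a cell nor whether an eye was injured. With no animal named, each group was 1 sample: no test was made, SDs are over cells and cover no spread between animals, and intervals of shares are exact Clopper-Pearson 95% intervals that cover counting error only. Dose, age and block of wells cannot be told apart.

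Immediate early genes are transcribed within minutes of a stimulus from factors already in the cell, with no new protein needed. Many encode transcription factors (Fos, Jun, Junb, Egr1, Klf6), and others encode proteins that end the response, such as Zfp36, which binds AU-rich elements and directs messenger RNA to decay. Microglia, the resident macrophages of the retina, can express them in the living tissue, and warm dissociation and sorting of tissue are also known to evoke them.

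The label was checked against its markers. Over kept cells the number of rule genes piled up at both ends: 35 kept cells had none and 40 had all 8. Fos, a subunit of the AP-1 factor, had a median of 1575 FPKM in high cells and 4.24 FPKM in low cells, over all groups. Junb, another AP-1 subunit, stood at 1108 FPKM in high cells and 3.51 FPKM in low cells, and the zinc finger factor Egr1 at 841 and 2.20 FPKM in high and low cells. These values chose the cells and are given as a description. Just inside the high class, 7 cells with 6 rule genes had a median summed FPKM of the 8 genes of 1634, and 8 cells with 5 had 1289. Just inside the low class, 8 cells with 2 rule genes had a median sum of 188 FPKM, and 4 cells with 3 had 1794. Klf6 was the least frequent, at an FPKM of 10 or more in 41 of 59 high and 0 of 64 low cells. Intermediate cells numbered 7 in PBS, 3 at 1 mg/kg and 7 at 10 mg/kg.

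**Figure D1:**
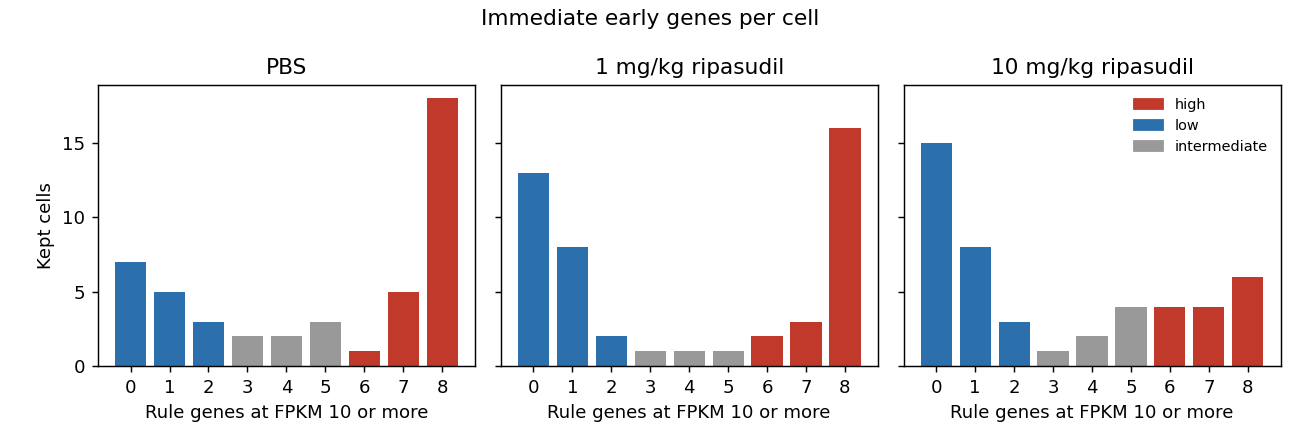
Kept cells (y axis) by the number of rule genes at an FPKM of 10 or more (x axis), in PBS, 1 mg/kg and 10 mg/kg ripasudil; colour marks the class. Cells gather at 0 and 8 in PBS and at 1 mg/kg, while at 10 mg/kg 15 cells stand at 0 and 6 at 8.

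High cells made up 24 of 46 kept PBS cells (52.2%, interval 36.9 to 67.1), 21 of 47 cells at 1 mg/kg (44.7%, 30.2 to 59.9) and 14 of 47 cells at 10 mg/kg (29.8%, 17.3 to 44.9). Low cells numbered 15, 23 and 26 in the same order. The intervals of all 3 groups overlap. Among cells with at least 2000 detected genes the high cells made up 63.2%, 71.4% and 53.8%, so the order of PBS and 1 mg/kg turned. On plates 1, 2 and 3 the high cells numbered 10, 8 and 6 in PBS, 6, 8 and 7 at 1 mg/kg, and 4, 8 and 2 at 10 mg/kg, so the 3 groups had the same number on plate 2.

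Both classes carried microglial transcripts. All 59 high and all 64 low cells held the growth factor receptor gene Csf1r. Tmem119 was detected in 93.2% of high and 85.9% of low cells, and the purinergic receptor P2ry12 in 88.1% of high and 67.2% of low cells. Fcrls was the least frequent of the 10 microglia markers, in 72.9% of high and 43.8% of low cells. Markers of rod photoreceptors, border macrophages, monocytes, neutrophils and dendritic cells were counted. At least 3 of 1 such type were found in 29 of 59 high and 17 of 64 low cells. Not counted there were Muller glia markers, of which at least 3 were found in 4, 6 and 2 high cells of the 3 groups. In low cells these numbers were 0, 0 and 2. At least 3 erythroid markers were found in 1 high PBS cell. Csf3r counts as a neutrophil marker and is also in the homeostatic microglia list. The summed FPKM of 8 neutrophil markers ran from 0 to 126796 in high cells and from 0 to 473 in low cells, with Camp and Ltf at 0 in every cell of both classes, and passed 10000 in 2 high cells and no low cell. The part of these transcripts in the results was not tested beyond leaving out those 29 high and 17 low cells. Under that setting 94 of the 146 higher and 44 of the 82 lower genes described below passed the threshold again.

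High cells held more detected genes in every group. In PBS they had 2186 to 9077 detected genes (median 4530.5), against 1241 to 3753 (median 2049) in low cells. With 1 mg/kg they were 1984 to 7643 (median 4452) in high cells and 1209 to 2805 (median 1595) in low cells. At 10 mg/kg they were 2264 to 6149 (median 3447) in high cells and 1006 to 6077 (median 1721) in low cells. The classes overlapped in part in each group, least at 1 mg/kg, where 3 high and 6 low cells lay in the shared range. The number of rule genes correlated with detected genes across cells, with a Spearman coefficient of 0.64, 0.82 and 0.61 in the 3 groups (n = 46, 47 and 47 cells). Both measures come from the same library, and 8 high cells but no low cell had fewer than 300000 assigned reads.

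**Figure D2:**
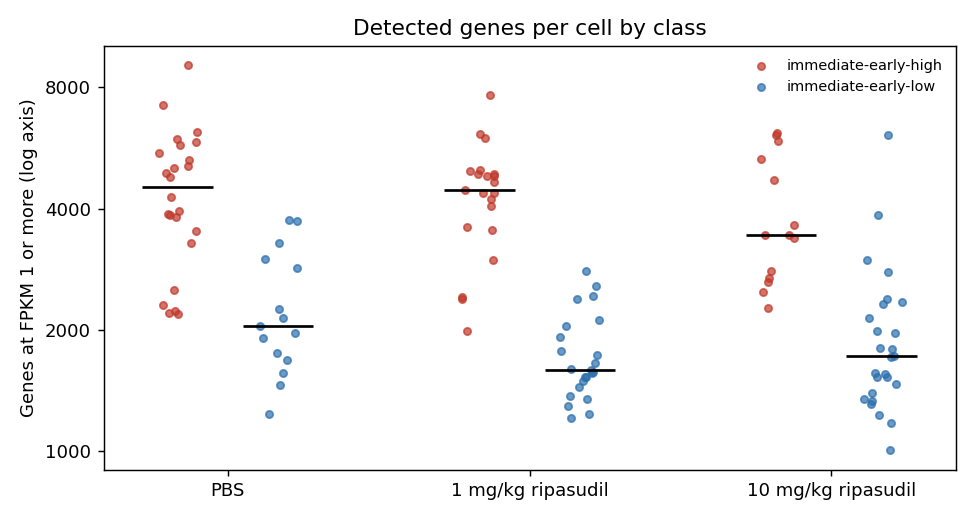
Genes at an FPKM of 1 or more per cell (y axis, log scale) in high and low cells of each group (x axis); bars are medians. High cells sit above low cells in each group, with medians of 4530.5 against 2049 in PBS.

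For this reason each gene was compared within a group by a least-squares fit of log2(FPKM + 1) on class, log2 detected genes and plate. The class term, high minus low, is called the adjusted difference, and a gene was called higher or lower when it was at least 1 or at most -1 on this log2 scale. The 4798 genes compared had a median adjusted difference of -0.34 in PBS, -0.14 at 1 mg/kg and 0.099 at 10 mg/kg; without the adjustment the medians were 1.00, 1.33 and 0.86. The adjusted value extrapolates in part in every group, most at 1 mg/kg, since few cells share a number of detected genes. In PBS 7 of 24 high and 6 of 15 low cells lay in the shared range. At 10 mg/kg 12 of 14 high and 7 of 26 low cells did. The upper end of the range there was set by a single low cell with 6077 detected genes, and the next low cell had 3860. Matched pairs, 1 high and 1 low cell of a group within 0.25 in log2 detected genes, gave a second measure from 9, 4 and 7 pairs.

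Outside the rule, 146 genes (3.04% of those compared) were called higher in all 3 groups and 82 (1.71%) were called lower in all 3. In single groups 13.9%, 22.5% and 21.8% of genes were called higher in PBS, at 1 mg/kg and at 10 mg/kg, and 25.3%, 23.7% and 13.1% lower. Of the 146 genes, 140 (2.92% of genes compared) were also called without the adjustment, 124 (2.58%) had a difference above 0 in all 3 groups in the matched pairs, and 66 (1.38%) passed the threshold there too. Of all genes compared, 1335 (27.8%) were called higher in all 3 groups unadjusted. In the pairs 40.5%, 47.9% and 50.6% of all genes were above 0 in the single groups. The pairs reuse cells that chose the 146 genes, so they are no independent check. Of the 82 lower genes, 70 (1.46% of genes compared) were below 0 in all 3 groups in the pairs, but 61 (1.27%) had a mean unadjusted difference above 0, so their direction rests on the adjustment. The 15 genes with the largest mean adjusted difference were Atf3, Dusp1, Socs3, Il1a, Otulinl, Nfkbia, Ccl4, Ccl3, Nfkbiz, Ier3, Ppp1r15a, Junos, Klf2, Ier5 and Cd83.

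**Figure D3:**
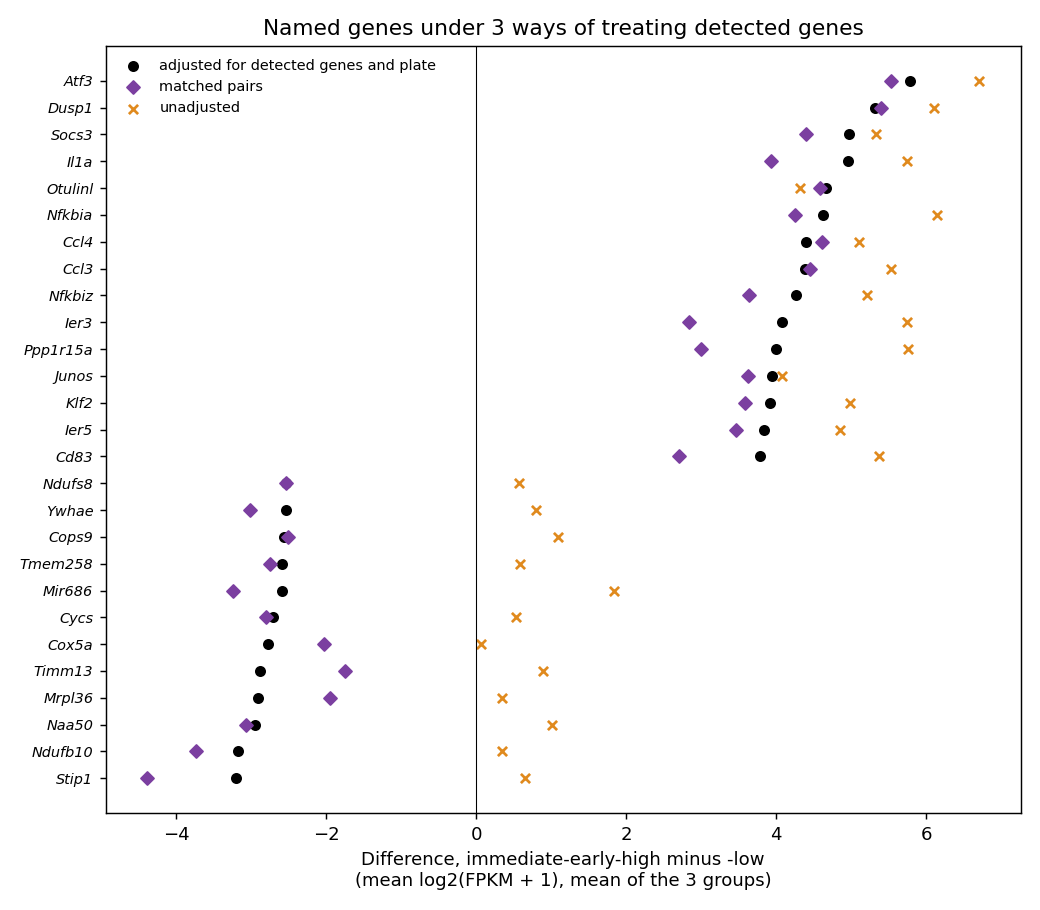
Difference in mean log2(FPKM + 1), high minus low cells, averaged over the 3 groups (x axis), for the 15 genes farthest above and the 12 farthest below 0, adjusted, in matched pairs and unadjusted. The upper 15 lie right of 0 by each measure; the lower 12 lie left of 0 when adjusted or paired and right of 0 unadjusted.

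Atf3 (chr1:191170296-191218039, minus strand, GRCm38.p6), a stress-induced factor of the ATF/CREB family, led the list. In PBS it ranged from 12.2 to 2027 FPKM (median 219) in high cells, against 0 to 8.15 FPKM (median 1.83) in low cells. With 1 mg/kg it ranged from 0.60 to 2686 FPKM (median 833) in high cells, against 0 to 7.62 FPKM (median 1.15) in low cells. At 10 mg/kg the range was 0.78 to 1219 FPKM (median 502) in high cells and 0 to 4.43 FPKM (median 0.89) in low cells. The classes did not overlap in PBS, and in the dosed groups a few high cells lay among the low ones. Atf3 reached an FPKM of 10 in 55 of 59 high cells (93.2%, interval 83.5 to 98.1) and in 0 of 64 low cells (upper limit 5.60%). Counts of cells at this level, here and below, were not adjusted for detected genes. Its adjusted difference was 5.87 in PBS, 5.93 at 1 mg/kg and 5.56 at 10 mg/kg.

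Dusp1, a phosphatase that switches off MAP kinases, had a median of 177 FPKM in high and 1.37 FPKM in low PBS cells. Its median at 1 mg/kg was 1195 FPKM in high and 2.06 FPKM in low cells, and at 10 mg/kg 403 FPKM in high and 1.94 FPKM in low cells. The classes overlapped in every group, as 5 of 64 low cells had an FPKM of 10 or more, up to 3811, against 55 of 59 high cells. The adjusted differences were 4.78, 6.18 and 5.0. Socs3, which blocks cytokine signalling through JAK kinases, had medians of 98.1, 162 and 89.8 FPKM in high cells of the 3 groups, against 0.16, 0.19 and 0.42 FPKM in low cells. No low cell exceeded 2.17 FPKM of Socs3, while 46 of 59 high cells had 10 or more, and the adjusted differences were 4.0, 6.49 and 4.42.

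Among the other immediate early factors, Klf2, a Krüppel-like factor, had mean adjusted differences of 3.92 over the groups, Ier5 3.84 and Ier3 4.08. Ier5 reached an FPKM of 10 in 46 of 59 high and 0 of 64 low cells. Ppp1r15a, also called Gadd34, directs the phosphatase that ends the integrated stress response, and its adjusted differences were 4.09, 3.75 and 4.16. Junos, with a mean of 3.94, is antisense to the rule gene Jun and shares 286 exonic bases with Jun and another gene, so its reads cannot be told from those of Jun where strand is not used. Otulinl, related to a linear deubiquitinase, ranged most between groups among these 15, at 2.13, 7.15 and 4.70. In the list of 30 other immediate early genes, 20 of the 29 in the file passed a filter of an FPKM of 1 in 10% of kept cells. Of these, 14, 14 and 10 were called higher in the 3 groups and 0, 0 and 1 lower, with medians of 1.70, 2.81 and 1.07. The counts of this list and those below stand beside 13.9%, 22.5% and 21.8% of all genes compared called higher. The shares called lower were 25.3%, 23.7% and 13.1%.

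Promoters are shown because regulators of such genes are known to act there. The 6 shown are among those that hold a searched motif, and Btg2 and Zfp36 are rule genes. Promoters without a match are not shown. The sequences are the 250 bases before the RefSeq start of each gene (GRCm38.p6, minus strand in all 6, written 5′ to 3′). Capitals mark the cAMP response element TGACGTCA in Dusp1, Ppp1r15a and Btg2, an AP-1 site (TGANTCA) in Il1a, an NF-kB site in Nfkbia and a CArG box, the site of serum response factor, in Zfp36.
Dusp1, chr17:26508473-26508722: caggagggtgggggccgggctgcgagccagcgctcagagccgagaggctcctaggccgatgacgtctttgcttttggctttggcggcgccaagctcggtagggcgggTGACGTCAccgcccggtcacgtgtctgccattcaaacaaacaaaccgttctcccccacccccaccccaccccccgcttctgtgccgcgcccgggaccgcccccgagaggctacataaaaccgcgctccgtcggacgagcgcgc
Ppp1r15a, chr7:45526269-45526518: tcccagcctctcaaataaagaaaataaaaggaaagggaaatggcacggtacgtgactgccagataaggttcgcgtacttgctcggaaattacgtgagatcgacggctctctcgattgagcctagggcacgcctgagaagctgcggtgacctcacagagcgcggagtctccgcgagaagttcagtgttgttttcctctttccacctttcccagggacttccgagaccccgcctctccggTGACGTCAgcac
Btg2, chr1:134079156-134079405: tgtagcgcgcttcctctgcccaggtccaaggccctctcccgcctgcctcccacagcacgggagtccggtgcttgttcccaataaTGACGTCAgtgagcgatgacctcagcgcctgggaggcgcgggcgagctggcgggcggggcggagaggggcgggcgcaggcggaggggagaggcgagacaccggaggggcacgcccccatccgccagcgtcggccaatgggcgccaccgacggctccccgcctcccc
Zfp36, chr7:28379229-28379478: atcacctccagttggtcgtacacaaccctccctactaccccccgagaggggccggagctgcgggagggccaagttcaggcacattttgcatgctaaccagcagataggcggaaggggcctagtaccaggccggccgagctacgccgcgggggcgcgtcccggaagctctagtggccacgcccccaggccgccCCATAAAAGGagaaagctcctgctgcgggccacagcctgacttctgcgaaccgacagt
Nfkbia, chr12:55492648-55492897: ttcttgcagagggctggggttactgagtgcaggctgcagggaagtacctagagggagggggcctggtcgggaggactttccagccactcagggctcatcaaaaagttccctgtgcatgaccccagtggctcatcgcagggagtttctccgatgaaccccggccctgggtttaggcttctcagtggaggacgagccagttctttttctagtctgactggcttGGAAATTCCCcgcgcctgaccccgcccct
Il1a, chr2:129309973-129310222: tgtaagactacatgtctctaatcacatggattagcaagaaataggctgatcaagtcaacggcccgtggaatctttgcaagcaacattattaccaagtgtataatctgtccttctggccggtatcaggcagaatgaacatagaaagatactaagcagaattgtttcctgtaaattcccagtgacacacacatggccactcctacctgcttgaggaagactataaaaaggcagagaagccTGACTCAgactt

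The cAMP response element, searched on both strands, was in 2 of the 12 promoters found for the 15 genes most higher in high cells, in 1 of 6 promoters of rule genes (Btg2) and in 1 of 11 promoters of the 12 genes most lower (Cycs). It was in 1.62% of all 27025 promoters of the same length. The AP-1 site was in 1 of the 12 (Il1a) and in 6.87% of all promoters, and the NF-kB site was in 2 of the 12 (Ier3 and Nfkbia) and in 3.75% of all promoters. No promoter of the 12 held the CArG box, which 1.40% of all promoters held. With so few promoters these shares describe single genes, and a match does not show that a factor binds.

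Within the NF-kB pathway Nfkbia and Nfkbiz had the largest differences. Nfkbia encodes the inhibitor that holds NF-kB in the cytoplasm and is itself induced by NF-kB. In PBS it ranged from 8.17 to 2063 FPKM (median 832) in high cells, against 0 to 2581 FPKM (median 2.57) in low cells. Its medians at 1 mg/kg were 749 FPKM in high and 2.07 FPKM in low cells, and at 10 mg/kg 582 FPKM in high and 1.97 FPKM in low cells. The ranges overlapped because 8 of 64 low cells had an FPKM of 10 or more, against 55 of 59 high cells. Adjusted differences of Nfkbia were 5.04, 3.69 and 5.16. Nfkbiz, a nuclear inhibitor-like cofactor, had 3.60, 5.93 and 3.29 and reached an FPKM of 10 in 47 high cells and no low cell. Cd83, a surface protein of activated antigen-presenting cells, had 2.76, 3.49 and 5.10. The list of 15 measured NF-kB subunits and feedback genes had medians of 0.025, 0.72 and 0.49, with 5, 6 and 5 called higher and 0, 4 and 1 lower. The subunit gene Rela had 0.015, -1.03 and -1.38 and the inhibitor gene Nfkbib -0.92, 0.72 and -0.75, both named after their values were seen.

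Cytokine and chemokine genes differed widely between the classes. Il1a (chr2:129299610-129309972, minus strand), which encodes interleukin 1 alpha, ranged in PBS from 0.14 to 5153 FPKM (median 235) in high cells, against 0 to 479 FPKM (median 1.79) in low cells. In cells given 1 mg/kg it ranged from 0.27 to 2604 FPKM (median 332) in high cells, against 0 to 18.5 FPKM (median 0.56) in low cells. At 10 mg/kg its range was 0 to 1074 FPKM (median 301) in high cells and 0 to 2714 FPKM (median 1.13) in low cells. The classes overlapped in each group, with 51 of 59 high cells (86.4%, interval 75.0 to 94.0) and 5 of 64 low cells (7.81%, 2.59 to 17.3) at an FPKM of 10 or more. The adjusted differences were 4.74, 4.55 and 5.57.

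Tnf (chr17:35199381-35202007, minus strand), the gene of tumor necrosis factor, had medians of 214, 177 and 128 FPKM in high cells of PBS, 1 mg/kg and 10 mg/kg, against 1.32, 0.56 and 1.00 FPKM in low cells. It reached an FPKM of 10 in 42 of 59 high cells (71.2%, interval 57.9 to 82.2) and 2 of 64 low cells (3.13%, 0.38 to 10.8). Some high cells thus lay among the low ones, and the lowest held 0 FPKM in PBS and at 1 mg/kg and 0.38 FPKM at 10 mg/kg. Its adjusted differences were 3.20, 2.55 and 3.04, and in matched pairs 2.99, 0.35 and 1.74. Both Tnf and Il1a were at an FPKM of 10 or more in 39 high cells and 1 low cell. Tnf alone was so in 3 high cells and 1 low cell, Il1a alone in 12 high and 4 low cells, and neither in 5 high and 58 low cells. These counts take no account of detected genes, which were more numerous in high cells.

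Ccl3 and Ccl4 are neighbouring chemokine genes whose products recruit leukocytes. Ccl4 had medians of 2447, 4676 and 1631 FPKM in high cells of the 3 groups, against 18.9, 16.3 and 16.5 FPKM in low cells. Its classes differed in level more than in presence, as 57 of 59 high cells and 41 of 64 low cells had an FPKM of 10 or more. Ccl3 had medians of 1156, 1790 and 1125 FPKM in high cells, against 12.2, 3.61 and 6.29 FPKM in low cells. Adjusted differences were 4.38, 5.04 and 3.80 for Ccl4 and 3.72, 6.33 and 3.10 for Ccl3. Of 16 measured cytokine genes, 12, 12 and 9 were called higher and 1, 0 and 0 lower, with medians of 1.82, 2.09 and 1.19. The members differed in sign: Ccl9, named after its values were seen, had -4.30, 2.78 and -0.33. At least 3 of Tnf, Il1a, Il1b, Ccl2, Ccl3 and Ccl4 had an FPKM of 10 or more in 53 of 59 high and 9 of 64 low cells. By group these were 23 of 24 high and 4 of 15 low cells in PBS, 19 of 21 and 1 of 23 at 1 mg/kg, and 11 of 14 and 4 of 26 at 10 mg/kg. These counts, too, take no account of detected genes. Without the adjustment 82.0%, 85.8% and 84.5% of all genes compared had a difference above 0 in the 3 groups.

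**Figure D4:**
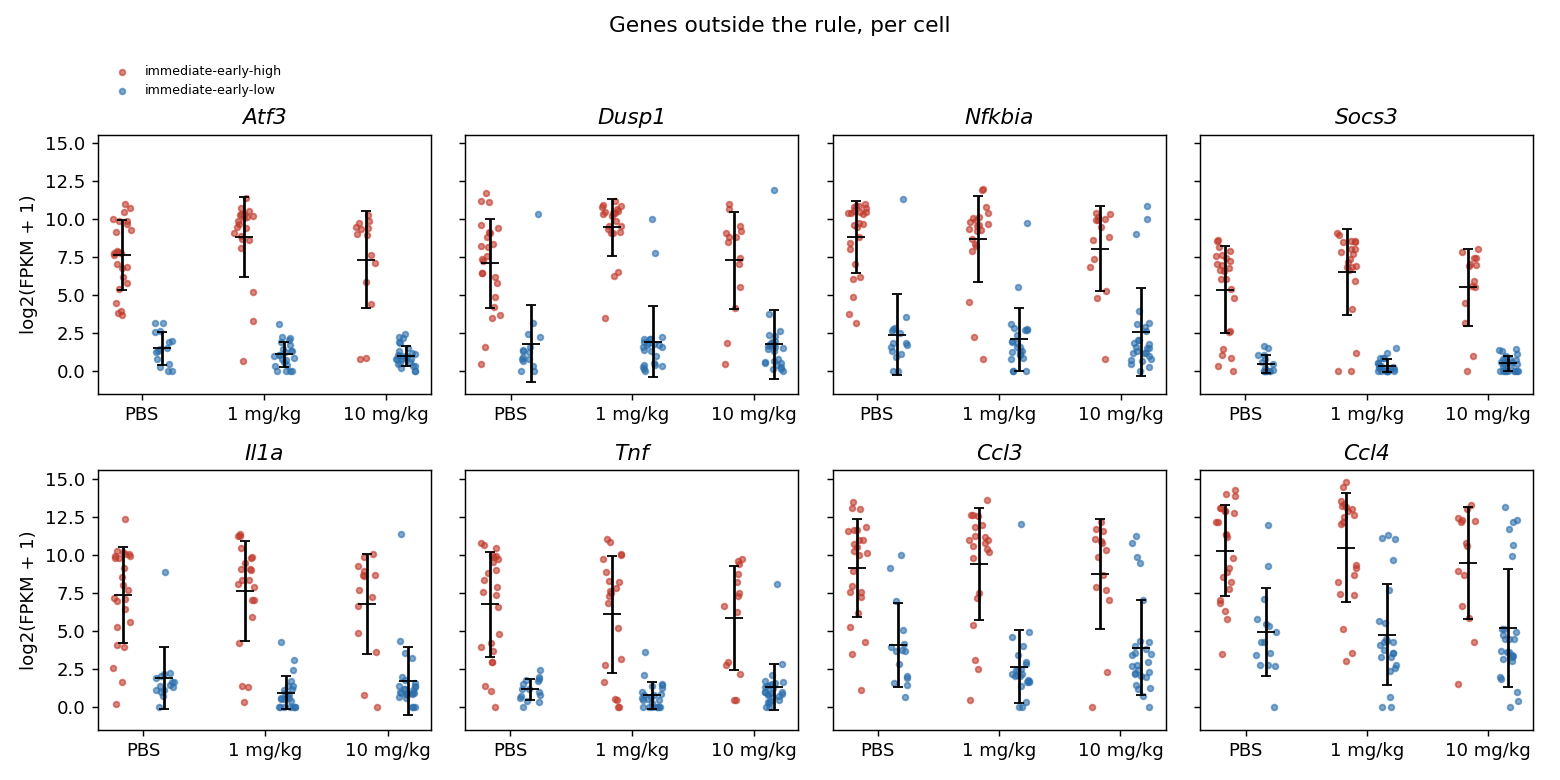
log2(FPKM + 1) of 8 genes outside the rule (y axis) in each high and low cell of PBS, 1 mg/kg and 10 mg/kg (x axis); bars are the mean and SD over cells. Atf3 and Socs3 stay low in every low cell, while single low cells reach the level of high cells for Dusp1, Nfkbia, Il1a, Tnf, Ccl3 and Ccl4.

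Gpr84, the receptor for medium-chain fatty acids, is named in the title of the series. Its medians were 113, 223 and 147 FPKM in high cells of the 3 groups, against 2.83, 1.20 and 0.89 FPKM in low cells, and 45 of 59 high and 13 of 64 low cells had an FPKM of 10 or more. The unadjusted differences were 2.85, 4.45 and 3.66, but the adjusted ones were -0.0087, 1.80 and 1.57. In matched pairs they were -1.31, 2.36 and -0.68, so all 3 measures were above 0 at 1 mg/kg, while in PBS and at 10 mg/kg the sign depended on the measure. A gene model shares 39.5% of its exonic bases, and reads of both cannot be separated. Rock1 and Rock2, the targets of ripasudil, were at an FPKM of 10 or more in 3 of 59 high cells each and in 1 and 3 of 64 low cells, which is too few to compare levels.

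Feedback on messenger RNA and signalling was spread unevenly. Of the factors that decay AU-rich messenger RNA, Zfp36l1, a relative of the rule gene Zfp36, had adjusted differences of 1.15, 6.11 and 1.89, with 55.9% of its exonic bases shared with a gene model, Btg1 1.89, 2.82 and 1.17, and the deadenylase subunit Cnot8 1.72, 2.62 and 0.39. Over the 15 measured genes of that list the medians were 0.24, 0.46 and 0.22, with 6, 6 and 2 called higher and 1, 2 and 1 lower. Of all genes compared 13.9%, 22.5% and 21.8% were called higher, and the 2 of 15 at 10 mg/kg lay below that share. Among 5 measured MAP kinase feedback genes (medians 0.23, 0.37 and 0.35; 2, 1 and 2 called higher, none lower) Dusp6 had 1.84, 0.37 and 1.98. Of 8 measured TGF-beta genes (medians 0.85, 1.27 and 0.95), 3, 4 and 3 were called higher and 0, 1 and 0 lower. They included Nrros, which presents latent TGF-beta on microglia (1.75, 1.74 and 2.61), and the repressor Skil (2.72, 0.85 and 1.64).

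Protein folding genes showed single large differences. Hspa5, the main chaperone of the endoplasmic reticulum, had adjusted differences of 3.93, 2.98 and 2.25, whereas 14 measured heat shock and chaperone genes had medians of 0.53, 1.49 and -0.039, with 2, 8 and 2 called higher and 2, 1 and 3 lower. With 13.9%, 22.5% and 21.8% of all genes called higher, these 14 stood well above the share only at 1 mg/kg. The unfolded protein factor Xbp1 had 1.84, 3.54 and 3.20, Herpud1, which aids degradation at that membrane, 1.83, 1.53 and 1.90, and the stress factor Atf4 2.29, 1.32 and 1.20. The 7 measured genes of that list had medians of 0.91, -0.20 and 1.24, with 3, 3 and 5 called higher and 0, 1 and 0 lower.

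Immune surface and antigen genes had adjusted list medians above 0 in every group, though complement and Fc receptor genes not at 10 mg/kg in matched pairs. Of 16 measured antigen presentation genes, 7, 10 and 12 were called higher and 1, 1 and 0 lower. Their medians were 0.82, 1.80 and 2.10 (in matched pairs 0.95, 1.82 and 2.87). Tapbp, Tap1 and Tap2, which act in the supply and loading of peptides for class I molecules, had mean adjusted differences of 2.56, 2.47 and 2.30. Of 24 measured interferon response genes, 9, 21 and 8 were called higher and 2, 0 and 2 lower. Their medians were 0.48, 1.79 and 0.61 (in matched pairs 1.52, 0.36 and 1.41), so the 2 measures differed most at 1 mg/kg. Irf8, a factor microglia need, had 3.07, 2.38 and 1.59, while Oas1a (3.90, 1.79 and 0.13) and Irf1 (4.14, 1.39 and 0.18) were not called at 10 mg/kg. For 13 measured complement and Fc receptor genes the medians were 0.74, 1.05 and 0.73 (in matched pairs 0.22, 1.36 and -0.15). Of these genes 5, 7 and 5 were called higher and 2, 2 and 0 lower. The anaphylatoxin receptors C5ar1 (2.51, 3.82 and 2.21) and C3ar1 (2.78, 4.21 and 0.74) and the Fc receptor Fcgr1 (2.54, 4.39 and 0.23) were the members farthest from 0.

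Genes of microglial identity and state had list medians below 1, except lysosomal genes at 10 mg/kg. For 25 measured homeostatic genes the medians were 0.26, 0.40 and 0.65 (in matched pairs -0.0072, -0.46 and 0.011), with 6, 7 and 10 called higher and 0, 3 and 1 lower. Siglech, a sialic acid receptor, had 1.82, 0.97 and 1.31. Tgfbr1, the TGF-beta receptor, had 0.54, 2.02 and 2.98, but its mean over the groups was -0.030 in matched pairs. For 22 measured disease-associated genes the medians were -0.41, -0.16 and 0.68, with 3, 7 and 6 called higher and 5, 5 and 1 lower, and Ch25h, a cholesterol hydroxylase, had 1.56, 2.80 and 1.42. Lysosomal genes, 27 measured, had medians of 0.35, 0.49 and 1.47, with 8, 9 and 19 called higher and 3, 4 and 0 lower; Hexa, Psap and Lgmn had means of 2.06, 2.03 and 1.85. The 14 lipid handling genes had medians of 0.24, 0.056 and 0.52, with 1, 4 and 2 called higher and 0, 0 and 2 lower. Of all genes compared 13.9%, 22.5% and 21.8% were called higher. The lipid counts lay below that share in PBS and at 10 mg/kg, and the disease-associated count lay near it in PBS.

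RNA processing genes had adjusted medians above 0, though not at 10 mg/kg in matched pairs. The 24 SR and hnRNP splicing factors had medians of 0.87, 0.86 and 0.40, with 9, 10 and 7 called higher and 1, 2 and 3 lower. Their medians in matched pairs were 0.41, 0.52 and -0.17. Of all genes compared 13.9%, 22.5% and 21.8% were called higher. Ddx5, an RNA helicase, had 2.71, 1.85 and 1.41, and Clk1, a kinase of splicing factors, 1.52, 2.54 and 1.81. Malat1, a long RNA that stays in the nucleus, is added although the naming rule did not take it and its values had been seen. It took a median of 0.130%, 0.186% and 0.0982% of assigned reads in high cells of PBS, 1 mg/kg and 10 mg/kg, against 0.00158%, 0.000508% and 0.00104% in low cells. The classes overlapped, with low cells of up to 0.209%, 0.0957% and 1.33%. Its adjusted differences were 4.21, 4.34 and 2.34.

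**Figure D5:**
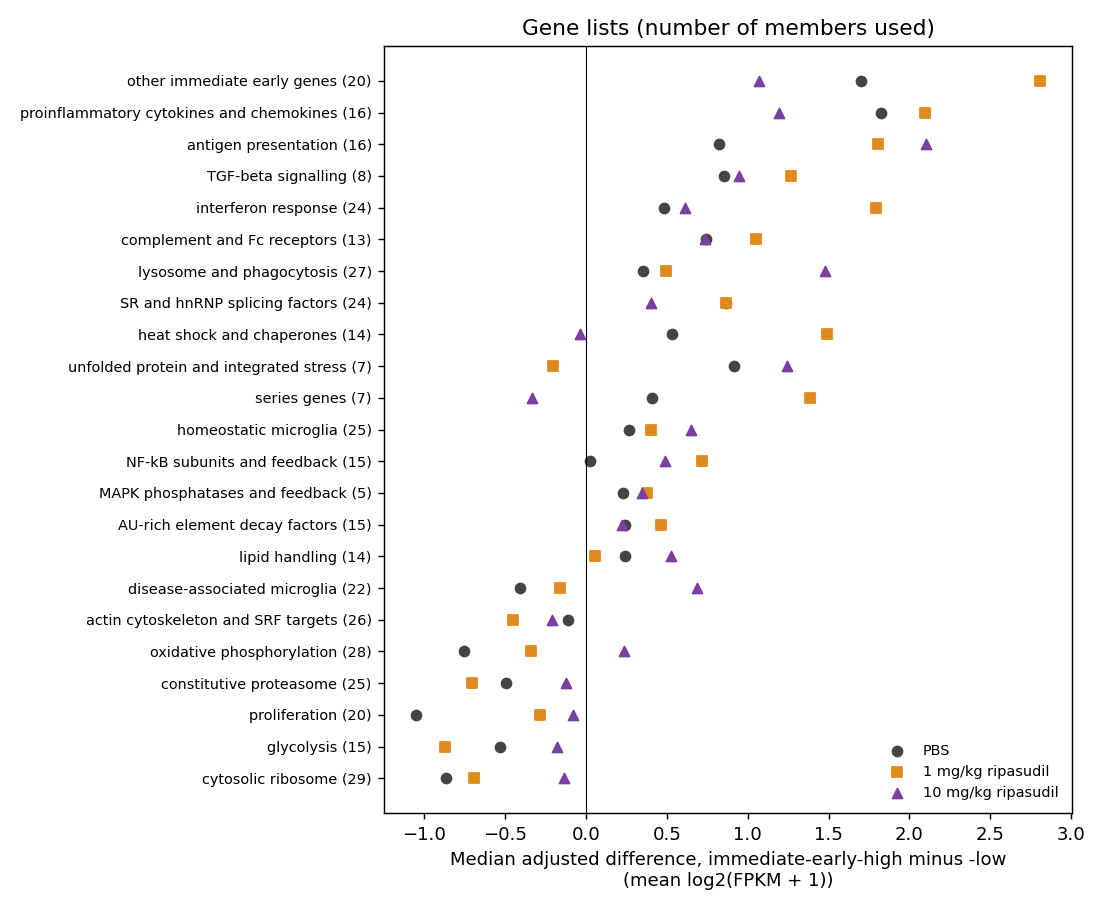
Median adjusted difference in mean log2(FPKM + 1), high minus low cells (x axis), of the measured members of each gene list (rows) in PBS, 1 mg/kg and 10 mg/kg. Other immediate early genes (1.70, 2.81 and 1.07) and cytokines (1.82, 2.09 and 1.19) lie farthest right in PBS, and cytosolic ribosome genes (-0.87, -0.69 and -0.13) lie left of 0.

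The 12 genes farthest below 0 were Stip1, Ndufb10, Naa50, Mrpl36, Timm13, Cox5a, Cycs, Mir686, Tmem258, Cops9, Ywhae and Ndufs8. Their mean adjusted differences ran from -3.20 (Stip1, a co-chaperone) to -2.53 (Ndufs8, a complex I subunit), and each mean was above 0 unadjusted. Cycs, the electron carrier cytochrome c, is one example: its medians were 71.7, 55.3 and 36.5 FPKM in high cells of the 3 groups, against 250, 103 and 0.73 FPKM in low cells. An FPKM of 10 or more was found in 45 of 59 high and 32 of 64 low cells, and its highest value was 255 FPKM in high cells and 3742 FPKM in low cells. Mir686 lies within an exon of Psmb5, whose reads it shares.

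Lists of metabolic, ribosomal, proteasome, proliferation and cytoskeletal genes are read against the 25.3%, 23.7% and 13.1% of all genes called lower in PBS, at 1 mg/kg and at 10 mg/kg. The 29 cytosolic ribosome genes had medians of -0.87, -0.69 and -0.13, with 1, 5 and 7 called higher and 14, 9 and 4 lower; Rpl11, Rps24 and Rpl5 had means of -1.91, -1.55 and -1.43. Their share of assigned reads had a median of 3.11%, 2.65% and 3.52% in high cells of the 3 groups, against 4.91%, 7.09% and 5.16% in low cells, with overlapping ranges. Glycolysis genes, 15 measured, had medians of -0.53, -0.88 and -0.18, with 2, 2 and 2 called higher and 4, 6 and 2 lower; Tpi1, Pgam1 and Ldha had means of -1.74, -1.36 and -1.08. The 28 oxidative phosphorylation genes had medians of -0.75, -0.34 and 0.24, with 0, 7 and 5 called higher and 12, 13 and 3 lower. The 25 constitutive proteasome genes had medians of -0.50, -0.71 and -0.12, with 2, 6 and 5 called higher and 9, 10 and 7 lower; Psmc5 and Psmd8 had means of -1.61 and -1.38 and Psmb2 one of 2.10. For 20 measured proliferation genes the medians were -1.05, -0.29 and -0.084, with 1, 3 and 3 called higher and 11, 4 and 2 lower; Tyms and Top2a had means of -1.61 and -1.07. Of 26 actin and serum response factor target genes (medians -0.11, -0.45 and -0.21), 3, 4 and 7 were called higher and 6, 9 and 5 lower. The GTPase Rhoa, upstream of the kinases that ripasudil inhibits, had -2.27, -2.85 and -1.17, and Arpc2, of the actin branching complex, a mean of -1.49. Every one of the medians of these lists was above 0 without the adjustment. In matched pairs the medians at 1 mg/kg were above 0 for oxidative phosphorylation (0.42), proteasome (0.16) and proliferation genes (0.12). At 10 mg/kg the paired median of the ribosome genes was 0.040. The other paired medians of these lists were below 0.

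The contrast of high with low cells was set side by side between doses. Both doses were compared with the same PBS cells. Genes were ranked where at least 25% of the cells of both the dose and PBS detected them, 2091 genes at 1 mg/kg and 1746 at 10 mg/kg. Among these, the gene whose adjusted difference lay farthest above that in PBS at 1 mg/kg was Clic1, a chloride channel protein, at 6.18 against -2.76 in PBS. Its mean log2(FPKM + 1) was 7.93 in high and 2.12 in low cells at 1 mg/kg, against 6.83 in high and 7.34 in low cells of PBS. Rpl28 (3.86 against -3.62), Mcm3 (4.48 against -2.98) and Mir1892 (3.03 against -4.10) came next, and all exonic bases of Mir1892 lie in Sptssa, whose reads it shares. Unadjusted, the PBS differences of Mcm3 (0.78) and Mir1892 (0.11) were above 0 and that of Rpl28 (-0.91) was below. Farthest below were the ATP synthase subunit Atp5c1 (-5.92 against 1.74 in PBS), Pilra (-5.37 against 1.83), Fuca1 (-2.98 against 3.26) and Bcap31 (-2.07 against 4.12). Unadjusted, all of these were above 0 at 1 mg/kg: Atp5c1 0.66, Pilra 0.93, Fuca1 0.67 and Bcap31 3.81. Their minus signs at that dose thus rest on the adjustment. At 10 mg/kg the mitochondrial genes Ndufs7 (3.67 against -3.73 in PBS), Atp5o (3.31 against -3.62) and Ndufa2 (3.02 against -3.84) and the lysosomal adaptor Lamtor2 (1.89 against -4.80) lay farthest above. Unadjusted, the PBS differences of Ndufs7 (0.75), Atp5o (0.27) and Ndufa2 (0.17) were above 0 and that of Lamtor2 (-1.49) was below. Ruvbl1 (-4.55 against 1.87), Mir3082 (-3.65 against 2.52), Chmp2a (-2.78 against 2.65) and Os9 (-2.39 against 2.05) lay farthest below. At 10 mg/kg the unadjusted differences of Mir3082 (0.58) and Os9 (0.35) were above 0 and those of Ruvbl1 (-0.89) and Chmp2a (-0.65) below. The Atp5o entry shares all its exonic bases with another Atp5o entry and Donson, and Mir3082 shares all of its own with Jmjd8 and Stub1, so these reads cannot be assigned to either. These genes were taken from the extremes of the ranking, so large values were to be found among them, and none was tested. Atf3, by contrast, differed by 5.87, 5.93 and 5.56 and Dusp1 by 4.78, 6.18 and 5.0 in PBS, 1 mg/kg and 10 mg/kg.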

How the data were processed

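The authors deposited FPKM values of 55364 genes in 144 single-cell libraries. The submitters' processing notes name STAR 2.7.2b, featureCounts 1.6.1, cutadapt 1.16, Trimmomatic 0.36, Trim Galore 0.4.4 and the build GRCm38.p6; settings and strandedness are not given in the sources used here. No molecular identifiers are named. Assigned reads per cell were recovered from the most frequent FPKM times gene length, 30204 to 4668722 (median 1614851).

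Genes compared were detected in 25% or more of the kept cells in 1 group or more, without the 8 rule genes. Values were log2(FPKM + 1), which understates differences of low genes; fits were least squares within each group (Python 3.11.15, numpy 2.4.6, pandas 2.3.3, scipy 1.17.1, matplotlib 3.10.9) and were tested on simulated data. The members and the 23 gene lists were chosen with earlier results of these data known. Named genes were the 15 farthest above and 12 farthest below 0 in the mean over groups with 1 sign in all 3, the 4 per dose and direction farthest from PBS, the series genes, and up to 3 per list; gene models and mitochondrially encoded genes were left out, and a few genes are not reported here. Alternatives changed the adjustment, plates, pseudocount, filter, class rule, cells, measure and scaling. Each library was a sorted cell, but no doublet caller was run, so wells holding several cells were not looked for.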

Additional observations from a re-analysis of the deposited data

How the results depend on the processing

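The genes called higher kept their direction under most settings, while the direction of the lower genes rests on the adjustment for detected genes. Of the 146 genes higher in all 3 groups, 109 to 146 were again above 0 in all 3 under every alternative but 2: 103 by the log2 ratio of mean FPKM and 20 with rule genes counted at an FPKM of 1. The settings with a looser or no gene filter reuse the same differences, so their 146 was fixed in advance. Atf3, Dusp1, Socs3, Il1a, Nfkbia, Ccl3, Ccl4 and Tnf had a mean difference above 0 under every alternative run, from 0.31 (Ccl3) to 8.37 (Atf3). No paired analysis was possible because replicate numbers only name cells and pair none of them; the matched pairs join cells by detected genes.

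Genes higher or lower in all 3 groups numbered 1335 and 0 unadjusted, 225 and 124 with 7 or more against 1 or fewer rule genes, 249 and 210 with a pseudocount of 0.1, 48 and 16 with a pseudocount of 10, and 30 and 136 with rule genes counted at an FPKM of 1. The higher ones numbered 334 by the log2 ratio of mean FPKM and 265 without plate 1. The lower ones numbered 28 for a slope over all kept cells and 184 without plate 3. They numbered 211 without cells holding 3 markers of another type (rod, border macrophage, monocyte, neutrophil or dendritic cell), a setting added after seeing the data. Genes called higher in PBS, 665 as reported, numbered 2405 unadjusted, 1467 by the ratio of means, 1017 with a filter at 10% of cells, 1069 with no filter, 1040 and 230 with pseudocounts of 0.1 and 10, and 1102 with rule genes at an FPKM of 1. The 1079 at 1 mg/kg numbered 2935 unadjusted, 1653 and 1867 with the looser filters, 564 with a pseudocount of 10 and 601 with rule genes at an FPKM of 1. The 1048 at 10 mg/kg numbered 2154 unadjusted and 412 with a pseudocount of 10. High cells made up 63.2%, 71.4% and 53.8% of the cells in PBS, 1 mg/kg and 10 mg/kg with at least 2000 detected genes, and 84.8%, 70.2% and 70.2% in PBS, 1 mg/kg and 10 mg/kg with rule genes at an FPKM of 1.

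Unadjusted, these mean differences turned above 0: Arpc2 1.47, Cops9 1.09, Cox5a 0.065, Cycs 0.54, Ldha 0.99, Mir686 1.84, Mrpl36 0.35, Naa50 1.01, Ndufb10 0.34, Ndufs8 0.57, Pgam1 1.63, Psmc5 0.88, Psmd8 1.56, Rhoa 1.15, Rpl11 0.82, Rpl5 1.00, Rps24 0.34, Stip1 0.65, Timm13 0.89, Tmem258 0.58, Top2a 0.0059, Tpi1 1.08, Tyms 0.14 and Ywhae 0.80. By the ratio of means Naa50 turned to 0.31, Psmd8 to 0.017, Siglech to -0.047 and the dose difference of Ndufs7 to -1.26; without plate 2 Ldha turned to 0.15, and in matched pairs Tgfbr1 to -0.030. With rule genes counted at an FPKM of 1, which left 2, 5 and 2 low cells, these turned: Arpc2 2.21, Mir686 1.48, Mrpl36 0.38, Naa50 0.085, Ndufs8 0.32, Pgam1 0.56, Rps24 1.80, Timm13 0.66, Top2a 0.048, Tyms 0.098, C3ar1 -2.97, C5ar1 -1.68, Cd83 -1.99, Ch25h -0.16, Ddx5 -0.052, Fcgr1 -0.48, Hexa -0.46, Hspa5 -2.62, Irf8 -2.12, Lgmn -3.38, Oas1a -0.43, Otulinl -1.02, Psap -3.64, Psmb2 -1.27, Siglech -0.82, Skil -0.31, Tap2 -1.18, Tapbp -1.06 and the antigen presentation median -0.46. So did the differences from PBS of Atp5c1 (6.75), Pilra (0.83) and Rpl28 (-0.69) at 1 mg/kg and of Chmp2a (0.87), Mir3082 (3.46), Ndufs7 (-5.12), Os9 (5.95) and Ruvbl1 (1.53) at 10 mg/kg.

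Depth limits the classes: in the shallowest high cells 1 read was worth up to 21.7 FPKM of Ier2, above the threshold of 10, and 4 matched pairs were found at 1 mg/kg. Leaving out cells under 300000 reads kept 135 of the 146 higher and 49 of the 82 lower genes past the threshold. The kept genes numbered 110, 82 and 64 higher and 32, 40 and 35 lower without plates 1, 2 and 3, and 94 and 44 without cells holding 3 markers of another type.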

Other observations

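The 17 intermediate cells entered no comparison. Atf3 had a median of 1.81 FPKM, and 5 of 17 cells reached an FPKM of 10. For Socs3 the median was 0.81 FPKM, for Il1a 2.64 FPKM, for Tnf 1.82 FPKM and for Nfkbia 9.17 FPKM. Junb (289 FPKM) and Egr1 (62.9 FPKM) stood higher in these cells than Jun (4.31 FPKM), Ier2 (4.85 FPKM) and Klf6 (1.19 FPKM). An FPKM of 10 or more was reached by Junb in 15 and by Fos in 13 of the 17 cells, but by Jun in 3.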
